A study of Sus scrofa with 12 samples.

Results

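Chemokines, interleukins and their receptors were examined in left ventricular muscle of pigs. The set held 93 genes of the 12362 named genes on the array. It was formed from probe sets with 1 symbol in the array annotation. The symbol had to begin with CCL, CXCL, CCR, CXCR or IL followed by a number, and CCL21 was left out. Probe sets shared by CCR1 and XCR1, and by IL1B and IL1B2, were also left out, so CCR1 and IL1B are not in the set. The 93 genes had 98 probe sets, and each gene was read by its probe set with the highest mean. Biotin-labelled total RNA was hybridised to Affymetrix arrays, and values are RMA signals on the log2 scale. All animals were female pigs labelled as 13 months old, and tissue was taken after 6 months of observation. The labels place a ventricular lead on the right ventricular septum and an atrial lead in the right atrial appendage of every animal. Control pigs had a sham procedure, and paced pigs had atrioventricular block by catheter ablation and a pacemaker in VDD mode, which follows the atrium and paces the ventricle. There were 12 arrays, with 3 from each combination of region (left ventricular free wall or septum) and treatment (control or paced). The design text gives 6 pigs per treatment, while each region and treatment had 3 arrays. The labels appear to call the tissue of an animal paired, but they do not tie arrays to animals. Free wall and septum arrays may therefore share animals and are not fully independent, and the spread between arrays may in part be technical.

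Chemokines are small secreted proteins that guide immune cells through G protein-coupled receptors. The CC and CXC families are named for the spacing of their first cysteines, and ligands and receptors often pair in more than a single combination. Interleukins signal between immune cells, and between immune and tissue cells, through receptors whose chains recruit JAK kinases and STAT factors, or, for the IL1 and IL17 families, adaptors that lead to NF-kB. In heart muscle most cells that make or read these signals are macrophages, endothelial cells and fibroblasts, while cardiac muscle cells carry some of the receptors. In whole tissue, fewer cells of a type and less RNA per cell cannot be told apart.

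Array medians lay between 4.31 and 4.45. Free wall paced array 2 stood apart, with -45.3 on the first principal component, against -19.2 to 22.3 elsewhere. The pair of control arrays numbered 1 had scores of 27.2 and 24.3 on component 2. The 4 cardiac muscle markers matched (MYH7, MYL2, ACTC1 and RYR2) read between 11.32 and 12.52. Of 7 T cell markers 0 were above the background level defined in the next paragraph, of 3 neutrophil markers 0, and of 10 macrophage and monocyte markers 5 (C1QA, C1QB, C1QC, MRC1 and CSF1R). Of 5 natural killer cell markers 1 was above it (NCR1), and of 3 B and plasma cell markers 1 (JCHAIN). Of 2 mast cell markers 1 was above it (MS4A2). Vascular endothelial markers were above it for 4 of 4 and fibroblast markers for 4 of 4.

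Most genes of the set gave a signal within the range of genes that heart muscle does not use. The table holds no control probe sets and no detection call, so 73 matched genes of the eye, pancreas, germ line, skin, stomach, kidney, brain and similar sites served as the reference. Their median signal was 2.80 and their 95th percentile 4.69, and 4 of the 73 lay above that percentile, the highest at 6.52. The median over the 93 genes of the set was higher, at 3.56. A gene was counted as above background when its mean over 12 arrays exceeded 4.69. This held for 19 of 93 genes (20.4%), against 50.2% of all named genes. The filter on dim probe sets, which kept means above 3, passed 61 of 93 genes (65.6%), against 81% of all named genes. Probe sets differ in how well they bind, so values set next to each other below do not rank transcripts of different genes. No order of abundance was read from them.

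Among 17 CC ligands, 3 were above background: CCL2, which draws monocytes (5.14), CCL24, an eosinophil attractant (5.08), and CCL14, a ligand of CCR1 (4.84). The other 14 CC ligands reached at most 4.56 (CCL3L1), and CCL20 was lowest at 1.61. Among 8 CXC ligands, 4 were above it. CXCL12, the stromal chemokine that retains CXCR4-bearing cells, read 6.98, and the neutrophil attractant CXCL2 read 5.15. The membrane-bound CXCL16 read 4.82 and CXCL14 read 4.78. The other distinct probe sets of CXCL2 read 4.58 and 3.98, under the background level. CXCL8, the main human neutrophil attractant, was lowest at 2.48, below the median of the restricted genes. Of 3 CC receptors, CCR7 (4.81), a receptor of lymph node homing, was above background, while CCR10 stood at 4.58 and CCR9 at 3.87. Of 5 CXC receptors, CXCR3 (5.72) was above it, and CXCR5 was lowest at 1.62.

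Of the interleukins, 2 of 29 were above background, and their median signal was 2.90, beside 2.80 for the restricted genes. IL34, a ligand of the macrophage receptor CSF1R, read 5.61, and IL23A, a subunit of IL23, read 4.71. IL33, an alarm signal released by damaged cells, stood just under it at 4.59. IL6 read 2.52, IL1A 2.62, IL18 2.25 and IL10 3.09, and the lowest were IL2, IL5 and IL21, each at 1.52. In all, 15 of 29 interleukins did not pass the filter and were not tested.

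Among interleukin receptors, 7 of 28 were above background. IL13RA1, which pairs with IL4R in the receptor shared by IL4 and IL13, read 8.99 and lay between 8.82 and 9.23 on all arrays. IL6ST, the signalling chain gp130 of the IL6 family, read 8.53 (8.12 to 8.91), and IL11RA, which binds IL11 and signals through IL6ST, read 5.99 (5.76 to 6.25). IL10RA, the binding chain for IL10, read 5.79, the IL1 receptor IL1R1 read 5.70, IL4R read 5.28 and IL17RC, a subunit for IL17A and IL17F, read 4.87. IL1RAPL2, a receptor-like gene of neurons, was lowest at 1.59. Of 2 soluble binding proteins, IL18BP, which neutralises IL18, read 5.19 and IL22RA2 read 3.38. Another probe set of IL18BP read 4.65, under the background level. IL4I1, which carries an interleukin name but encodes an amino acid oxidase, read 4.25.

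**Figure D1:**
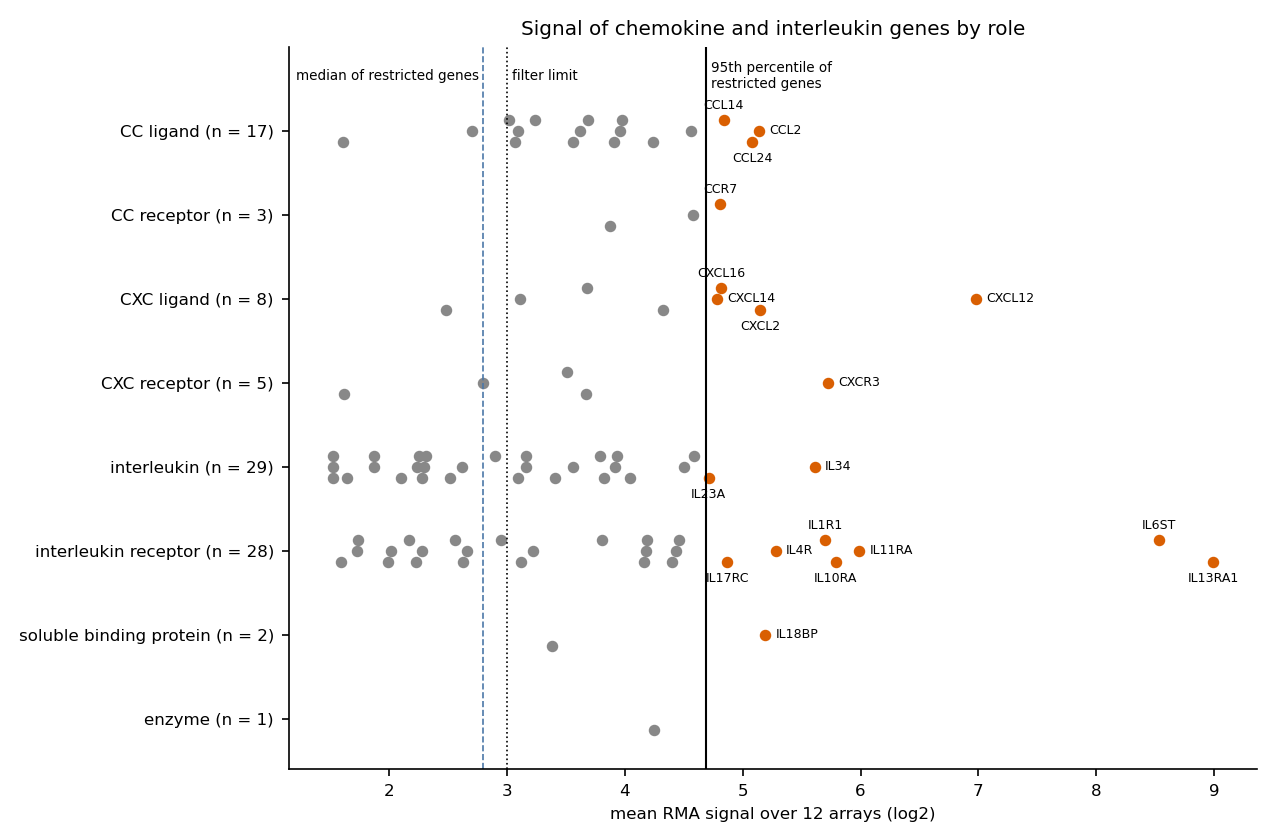
Mean RMA signal (log2) over 12 arrays for each of the 93 genes, in rows by role. Orange points, 19 in all, lie above the solid line at 4.69, the 95th percentile of tissue-restricted genes; the dotted line is the filter limit at 3 and the dashed line the median of the restricted genes at 2.80.

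Several receptors were above background while their ligands were not. IL4R and IL13RA1 were above it, with IL4 at 2.24 and IL13 at 3.92. IL10RA was above it with IL10 at 3.09. IL6ST serves many ligands, of which IL6 read 2.52 and LIF 4.37, while CLCF1, outside the set, was above background at 4.95. CXCR3 was above it, with its ligands CXCL9, CXCL10 and CXCL11 at 3.68, 4.32 and 3.11. The reverse held for other pairs: CXCL12 was above background and its receptor CXCR4 read 3.67, and CXCL16 was above it and its receptor CXCR6 read 2.80. IL33, just under the level at 4.59, has the receptor IL1RL1, which read 1.99. IL34 and its receptor CSF1R (5.39) were both above it. IL18BP was above it, while IL18 read 2.25 and IL18R1 1.74. Such a pairing describes signals on this array and says nothing of protein. It also depends on the level chosen. At the 90th percentile of the restricted genes (4.15), CXCL10, LIF and IL33 would also count as above background. At the 99th (5.88), only IL13RA1, IL6ST and CXCL12 of the genes in this paragraph would.

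Spread between arrays of the same group was largest for CCL2, with a pooled within-group SD of 0.76, above that of 99.2% of probe sets tested. CCL2 read 4.45, 5.68 and 5.89 in free wall control, 4.34, 4.23 and 6.09 in free wall paced, 4.86, 5.18 and 4.89 in septum control, and 6.05, 4.51 and 5.47 in septum paced arrays. High and low arrays occurred in both treatments, and the groups overlapped in both regions. IL33 followed among genes near or above background (SD 0.59), then CCL14 (0.53), CXCL12 (0.51) and CXCL10 (0.50). IL33 read 4.45, 4.71 and 5.11 in free wall control, 5.47, 3.78 and 5.15 in free wall paced, 4.46, 3.83 and 4.36 in septum control, and 4.53, 5.21 and 4.02 in septum paced arrays, with no group apart. CXCL12 read lowest in both control arrays numbered 1, at 6.04 in free wall and 5.97 in septum, against 6.83 or more on the other 10 arrays. Its log2 difference between paced and control was 0.53 in each region (SE 0.35, n = 3 per group), within the spread of the control arrays. The 4 fibroblast markers matched (DCN, LUM, COL1A1 and COL3A1) also had their lowest mean levels on these arrays, at 8.13 and 8.21 against 8.70 to 9.31 elsewhere, and their part in the CXCL12 value was not tested. The 2 probe sets of IL25, and 2 of the 4 of CXCL2, held identical values and are not separate readings. IL1B2 is a near copy of IL1B, whose signals the array may not separate. It read 2.17 to 3.98 with a within-group SD of 0.64.

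The first comparison set paced against control pigs in the free wall, the region that lies far from the lead. CCL26, the eotaxin that attracts eosinophils through CCR3, read 4.37, 3.74 and 3.53 on control arrays and 3.20, 3.27 and 3.32 on paced ones. All 3 paced arrays lay below all 3 control arrays, with a log2 difference of -0.62 (SE 0.20, 1.53-fold, limma adjusted p = 0.998), and every value lay under the background level. Without free wall control array 1, the highest, the difference was -0.37. CXCL11, an interferon-induced ligand of CXCR3, read 3.71, 3.16 and 3.38 on control arrays and 3.12, 2.93 and 3.13 on paced ones, also without overlap and also under the background level. Its difference was -0.36 (SE 0.14, adjusted p = 0.998), and it was -0.21 without free wall control array 1.

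Among genes above background, CXCL2 read 4.88, 4.78 and 5.05 on control arrays of the free wall and 5.28, 5.18 and 5.36 on paced ones. The groups did not overlap, and the difference was 0.37 (SE 0.14, 1.29-fold, adjusted p = 0.998). These values are of its highest probe set, and its other distinct probe sets had means under the background level. IL10RA read 6.17, 6.08 and 5.57 on control arrays and 5.36, 5.69 and 5.27 on paced ones, with overlap, at -0.50 (SE 0.19, adjusted p = 0.998). IL4R read 5.18, 5.14 and 5.02 on control arrays and 4.79, 4.82 and 4.98 on paced ones, all paced below all control, at -0.25 (SE 0.15, adjusted p = 0.998). Macrophage and monocyte markers stood below 0 for 8 of 9 tested, with a median of -0.32. MSR1, a scavenger receptor, stood lowest at -0.89 (SE 0.16, adjusted p = 0.393). The mean level of the list was 4.80 to 4.91 on control arrays and 4.41 to 4.72 on paced ones, and LYZ, AIF1, CD14, MSR1 and SPI1 were under the background level. In the septum these markers were below 0 for 5 of 9 with pacing (median -0.03), and IL10RA differed by -0.21 (SE 0.19). The part of these markers in the value of IL10RA was not tested.

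None of the 61 genes tested passed in the free wall (0 at a limma adjusted p under 0.05, where 0.00484% of all probe sets passed). At an unadjusted p under 0.05 there were 4 (6.56%, against 4.56% of all probe sets), namely CXCL2, CCL26, CXCL11 and IL10RA. Groups did not overlap for 6 of 61 (9.84%), which besides CCL26, CXCL11, CXCL2 and IL4R were CCL28 and IL22RA2, against 8.16% of all probe sets. The median over the 61 genes was 0.01, with 32 above 0, beside a median of 0.00 over all probe sets. Without free wall paced array 2 the median of the set was -0.09. By role the medians ran from -0.12 for 3 CXC receptors to 0.15 for 3 CC receptors, and 15 CC ligands spanned -0.62 to 0.32.

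In the septum, next to the lead, CCL26 again read lower on paced arrays. It read 4.16, 3.94 and 3.63 on control arrays and 3.06, 3.34 and 3.18 on paced ones, without overlap, at -0.72 (SE 0.20, 1.64-fold, adjusted p = 0.959). IL15, which sustains natural killer and memory T cells, read 3.46, 3.62 and 3.82 on control arrays and 4.28, 4.28 and 4.33 on paced ones. The groups did not overlap, and the difference was 0.66 (SE 0.26, 1.58-fold, adjusted p = 0.992), with all values under the background level. CXCL11 differed by 0.15 (SE 0.14) and IL4R by 0.18 (SE 0.15), both with overlapping groups and an adjusted p of 0.992. CXCL11 stood at 0.08 without septum control array 1. IL4R stood at 0.01 without septum paced array 1, which read 6.00 against 5.38 and 5.63. CCL24, the neighbour of CCL26 in the RefSeq gene order of Sscrofa11.1 and a ligand of the same receptor, differed by 0.04 (SE 0.19) in the septum and -0.15 (SE 0.19) in the free wall.

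Of 61 genes, 0 passed in the septum (0.00968% of all probe sets did), and 2 had an unadjusted p under 0.05 (3.28%, against 4.65% of all). Groups did not overlap for 6 (9.84%, against 10.5%): CCL14, CXCL16, IL15 and IL17RA higher, CCL26 and CCR7 lower. The median was 0.01, with 32 of 61 above 0, beside 0.00 over all probe sets. The 7 CXC ligands tested had a median of 0.21, with 5 above 0 and a range from -0.15 (CXCL14) to 0.53 (CXCL12).

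When the 2 regions were averaged by array number within each treatment, CCL26 stood at -0.67 (SE 0.17, 1.59-fold, adjusted p = 0.734). Control averages of 3.90 ± 0.35 (SD, n = 3) and paced averages of 3.23 ± 0.09 did not overlap. It was the only gene of the 61 without overlap here (1.64%, against 10.5% of all probe sets). CXCL2 stood at 0.29 (SE 0.12, adjusted p = 0.889) and IL10RA at -0.35 (SE 0.15, adjusted p = 0.897), and IL10RA was at -0.20 without both control arrays numbered 1. These 3 genes had an unadjusted p under 0.05 (4.92%, against 5.55%), and 0 passed (0.00484% of all). CXCL11 stood at -0.10 (SE 0.09) and IL4R at -0.04 (SE 0.10), with adjusted p-values of 0.976 and 0.997. CXCL11 turned to 0.05 without free wall control array 1, and IL4R ranged from -0.24 to 0.17 over fits without single arrays.

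Whether pacing acted differently near the lead and far from it was tested as septum effect minus free wall effect. CXCL9, another CXCR3 ligand, had the largest value among those at an unadjusted p under 0.05, at 0.77 (SE 0.30, adjusted p = 0.999). It read 3.48, 4.08 and 4.08 in free wall control, 3.69, 3 and 3.62 in free wall paced, 3.33, 3.75 and 3.56 in septum control, and 3.96, 3.98 and 3.68 in septum paced arrays. Its paced mean was below the control mean in the free wall and above it in the septum, and the groups overlapped in both regions. The CXCL9 difference was 0.55 without free wall paced array 2. CXCL11 had a difference of 0.50 (SE 0.20, adjusted p = 0.999), which was 0.29 without both control arrays numbered 1. CCL28, a chemokine of mucosal surfaces, had -0.64 (SE 0.27), and IL4R 0.43 (SE 0.21), both with an adjusted p of 0.999. The IL4R value was 0.26 without septum paced array 1, and the CCL28 value was -0.44 without free wall paced array 2. All values of CXCL9, CXCL11 and CCL28 lay under the background level. Of 61 genes, 0 passed (0% of all probe sets), and 3 had an unadjusted p under 0.05 (4.92%, against 2.75%). That count was between 0 and 6 when single arrays were left out, with 0 without septum control array 1, where 2.66% of all probe sets met the rule.

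**Figure D2:**
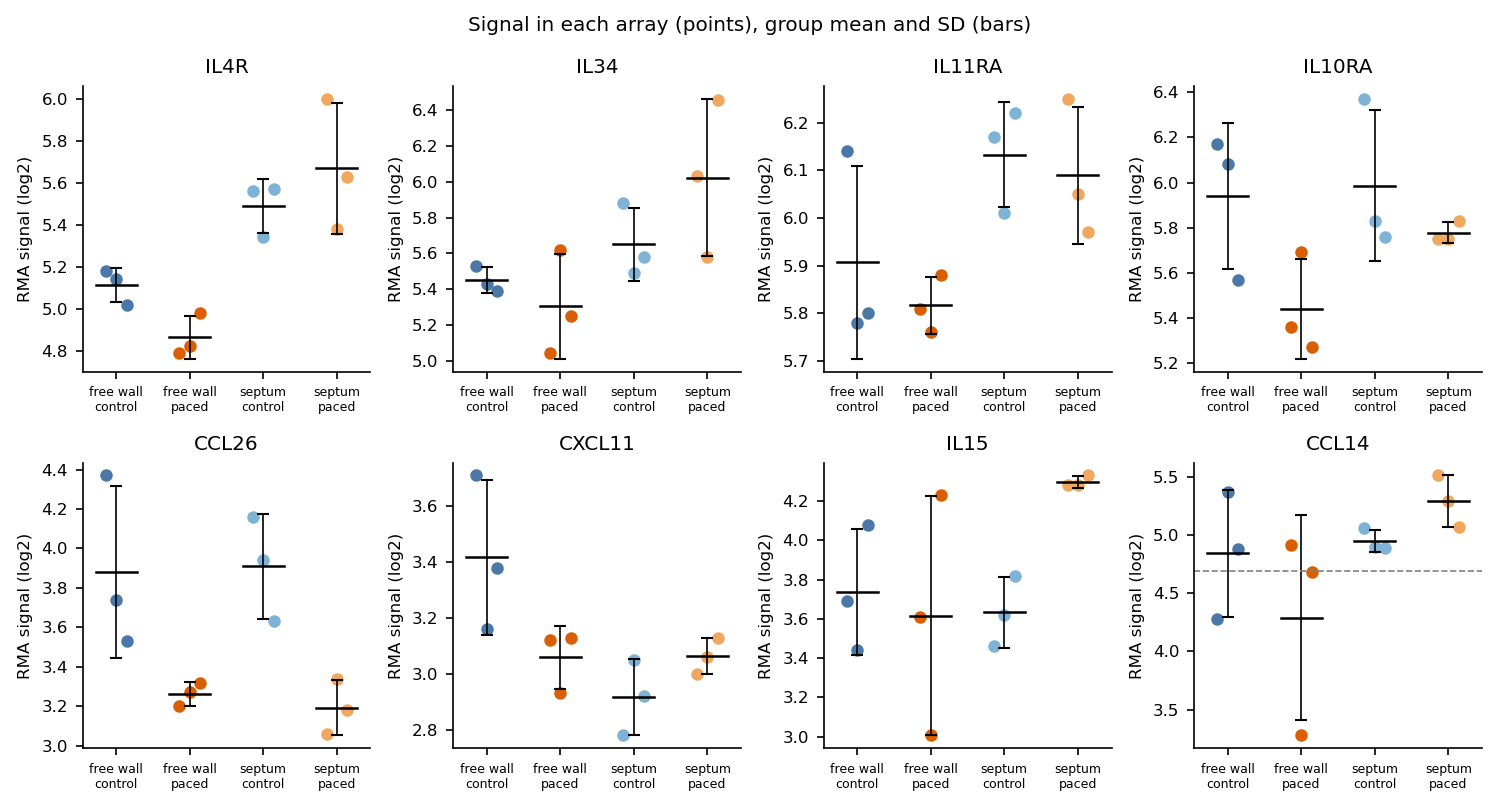
RMA signal (log2) of 8 genes in each of the 12 arrays, by group; points are arrays, wide bars the group means and capped bars the SD (n = 3), and the dashed line marks the background level of 4.69 where it falls in the range. All 6 septum arrays of IL4R lie above all 6 free wall arrays, and all 6 paced arrays of CCL26 lie below all 6 control arrays.

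The gene with the largest regional difference over both treatments was IL4R, the chain that binds IL4 and, with IL13RA1, carries the IL13 signal. In control pigs it read 5.18, 5.14 and 5.02 in free wall and 5.56, 5.34 and 5.57 in septum. In paced pigs it read 4.79, 4.82 and 4.98 in free wall and 6.00, 5.38 and 5.63 in septum. All septum arrays lay above all free wall arrays in each treatment, and also across treatments, where 0.668% of all probe sets had regions that did not overlap. The log2 difference was 0.38 in control pigs (SE 0.15, 1.30-fold, adjusted p = 0.997) and 0.81 in paced pigs (SE 0.15, 1.75-fold, adjusted p = 0.27). Over both treatments it was 0.59 (SE 0.11, 1.51-fold, n = 6 per region, limma adjusted p = 0.199), rank 13 by p among 20668 probe sets. It did not pass. With array number within a treatment as a block, since regions may share animals, the adjusted p was 0.387. Over 20 alternatives it lay between 0.51 and 0.66 with adjusted p-values from 0.0684 to 0.578. The partner chain IL13RA1 differed by 0.06 (SE 0.12) in control and 0.03 (SE 0.12) in paced pigs. IL21R, the neighbour of IL4R in the RefSeq gene order, read 2.56 and was not tested.

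The receptor chain IL11RA and the interleukin IL34 also read higher in septum. IL11RA read 6.14, 5.78 and 5.80 in free wall and 6.17, 6.01 and 6.22 in septum of control pigs, and 5.81, 5.76 and 5.88 in free wall and 6.25, 6.05 and 5.97 in septum of paced pigs. The regions did not overlap in paced pigs, and the difference over both treatments was 0.25 (SE 0.09, adjusted p = 0.537). IL34 read 5.39 to 5.53 in free wall and 5.49 to 5.88 in septum of control pigs. In paced pigs it read 5.04, 5.62 and 5.25 in free wall and 6.03, 5.58 and 6.46 in septum. IL34 differed by 0.72 in paced pigs (SE 0.21, 1.65-fold, adjusted p = 0.525) and by 0.46 over both treatments (SE 0.15, 1.38-fold, adjusted p = 0.483), with overlap in both. Macrophage and monocyte markers, cells that carry the IL34 receptor, were above 0 for 8 of 9 in the paced comparison (median 0.22) and 5 of 9 over both treatments (median 0.01). In control pigs they were above 0 for 1 of 9 (median -0.15), where IL34 differed by 0.20 (SE 0.21). CSF1R itself read 5.20 to 5.38 in paced free wall and 5.21 to 5.48 in paced septum. The part of these markers in the value of IL34 was not tested.

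In paced pigs CCL14, IL15 and IL17RA also had an unadjusted p under 0.05, each higher in septum without overlap. CCL14 read 4.91, 3.28 and 4.68 in free wall and 5.51, 5.29 and 5.07 in septum, at 1 (SE 0.37, 2-fold, adjusted p = 0.654). IL15 read 3.61, 3.01 and 4.23 in free wall and 4.28, 4.28 and 4.33 in septum, at 0.68 (SE 0.26, adjusted p = 0.67). The low free wall value of both came from array 2, which stands apart, and without it CCL14 was at 0.50 and IL15 at 0.38. IL17RA, the common chain of IL17 receptors, was at 0.28 (SE 0.11, adjusted p = 0.701), and its mean of 4.40 lay under the background level.

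CXCL11 read lower in septum than in free wall of control pigs. It read 3.71, 3.16 and 3.38 in free wall and 2.78, 3.05 and 2.92 in septum, without overlap, at -0.50 (SE 0.14, 1.41-fold, adjusted p = 0.997). Without both control arrays numbered 1 the difference was -0.28. In paced pigs the regions read 2.93 to 3.13 and 3 to 3.13, with a difference of 0.00 (SE 0.14). Over both treatments it was -0.25 (SE 0.10, adjusted p = 0.596), or -0.14 without both control arrays numbered 1, and all 12 values lay under the background level.

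In control pigs, 0 of 61 genes passed (0% of all probe sets), and 2 had an unadjusted p under 0.05 (3.28%, against 3.67%). Regions did not overlap for 4 (6.56%, against 13.1%): CXCL11, IL4R, CCL3L1 and IL17REL. In paced pigs 0 passed (0% of all), 5 had an unadjusted p under 0.05 (8.2%, against 6.73%), and 7 did not overlap (11.5%, against 9.91%). All 5 and all 7 were higher in septum, where the shares of all probe sets higher by these rules were 4.3% and 6.44%. The 7 were CCL14, IL10RA, IL11RA, IL15, IL17RA, IL4R and IL6ST, the last at 0.32 (SE 0.20). Over both treatments 0 passed (0.00968% of all), and 4 had an unadjusted p under 0.05 (6.56%, against 7.83%). The set had 41 of 61 genes above 0 with a median of 0.04, beside 53.3% above 0 and a median of 0.01 over all probe sets. Interleukin receptors were above 0 for 13 of 16 (median 0.10) and CC ligands for 12 of 15 (median 0.05), while CXC ligands were above 0 for 3 of 7 (median -0.06). With array weights 9 genes had an unadjusted p under 0.05 in control pigs (14.8%, against 8.15% of all probe sets in that fit) and 8 over both treatments (13.1%, against 13.8%). Without free wall paced array 2 there were 8 in paced pigs (13.1%, against 10.3%) and 7 over both treatments (11.5%, against 14.4%).

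**Figure D3:**
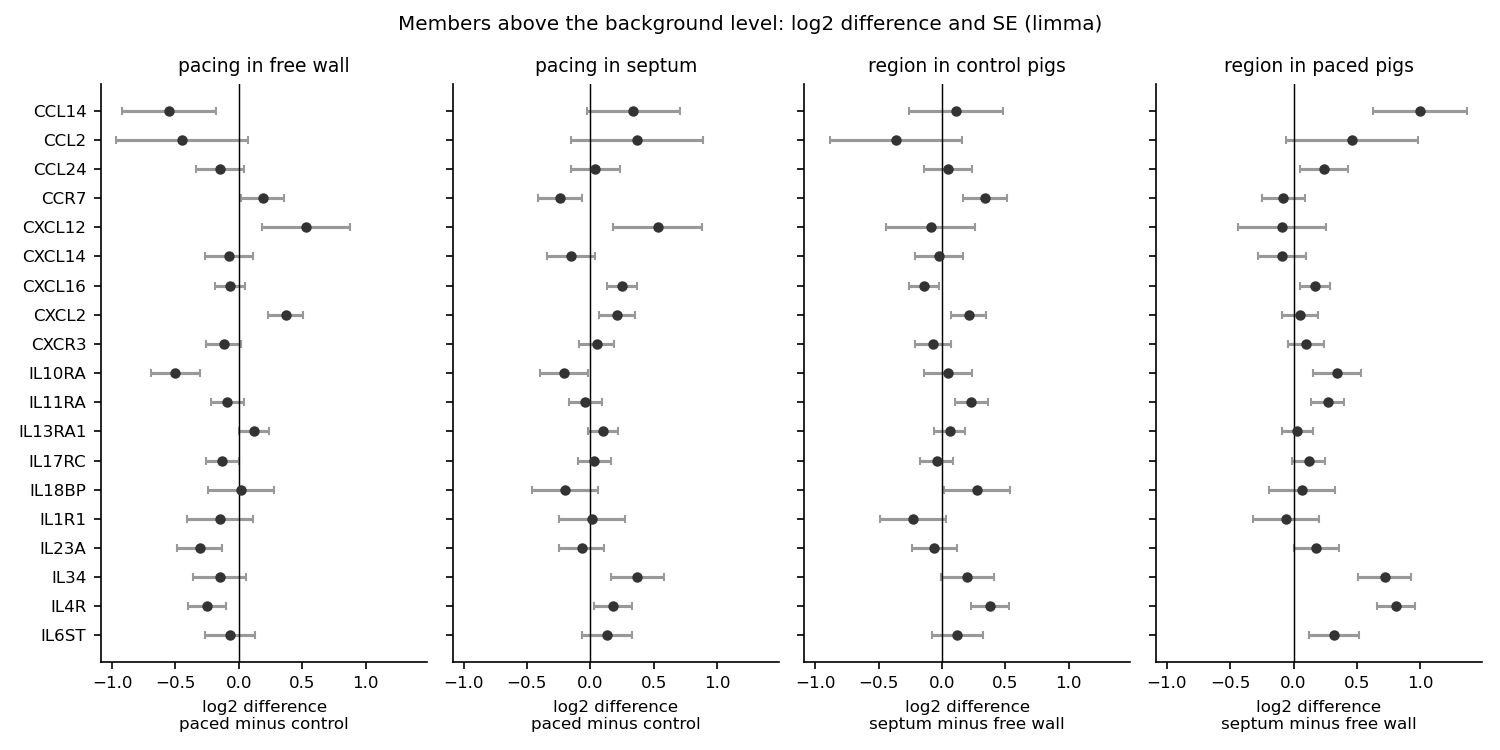
Log2 difference (point) and SE (bar) from limma for the 19 genes above background, for pacing in free wall and septum (paced minus control) and for region in control and paced pigs (septum minus free wall), 3 arrays per group. IL4R lies at 0.38 and 0.81 in the region panels, and none of the 19 genes passed an adjusted p of 0.05 in any panel.

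Signalling genes that act below these receptors were read from a list of 55, of which 40 were matched, 31 were above background and 38 were tested. Over both treatments 5 had an unadjusted p under 0.05 on the higher side in septum (4.79% of all probe sets) and 2 on the lower side (3.04%), and 0 passed in any of the 7 comparisons. SOCS2, a feedback inhibitor of cytokine and growth hormone receptors, read 5.32, 5.10 and 4.88 in free wall control and 4.55, 4.88 and 4.97 in free wall paced arrays. It read 5.76, 5.87 and 5.38 in septum control and 6.20, 5.98 and 5.88 in septum paced arrays, so that all septum arrays lay above all free wall arrays. Its difference was 0.90 over both treatments (SE 0.12, 1.86-fold, adjusted p = 0.0661), 0.57 in control pigs (SE 0.17, adjusted p = 0.997) and 1.22 in paced pigs (SE 0.17, adjusted p = 0.142). With array weights or an intensity trend SOCS2 passed over both treatments (adjusted p = 0.0207 and 0.0455). With array number within a treatment as a block it did not (adjusted p = 0.19). The range over its alternatives was 0.0207 to 0.248. CISH, a related inhibitor, stood at 1.09 over both treatments (SE 0.26, 2.13-fold, adjusted p = 0.309) and at 1.38 in paced pigs (SE 0.37, adjusted p = 0.478), where all septum arrays were higher.

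RELA, a subunit of NF-kB, stood at 0.26 over both treatments (SE 0.08, adjusted p = 0.447), while the kinase JAK2 stood at -0.33 (SE 0.11, adjusted p = 0.462) and PIAS1, an inhibitor of STAT factors, at -0.19 (SE 0.08, adjusted p = 0.572). STAT6, the factor that IL4R activates, was singled out after its values were seen. It read 5.43 to 5.62 in free wall and 5.66 to 5.81 in septum of control pigs, and 5.34 to 5.53 in free wall and 5.59 to 5.85 in septum of paced pigs. Regions did not overlap within either treatment, and the difference over both was 0.21 (SE 0.08, 1.16-fold, adjusted p = 0.558). JAK1, which binds the IL4R chain, differed by 0.10 (SE 0.07) over both treatments. For pacing, GNAI3, a G protein subunit used by chemokine receptors, stood at 0.43 in the septum (SE 0.19, adjusted p = 0.992), and the receptor kinase GRK5 at 0.25 with regions averaged (SE 0.09, adjusted p = 0.868). SOCS2 had a difference of pacing effects of 0.65 (SE 0.24, adjusted p = 0.999).

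**Figure D4:**
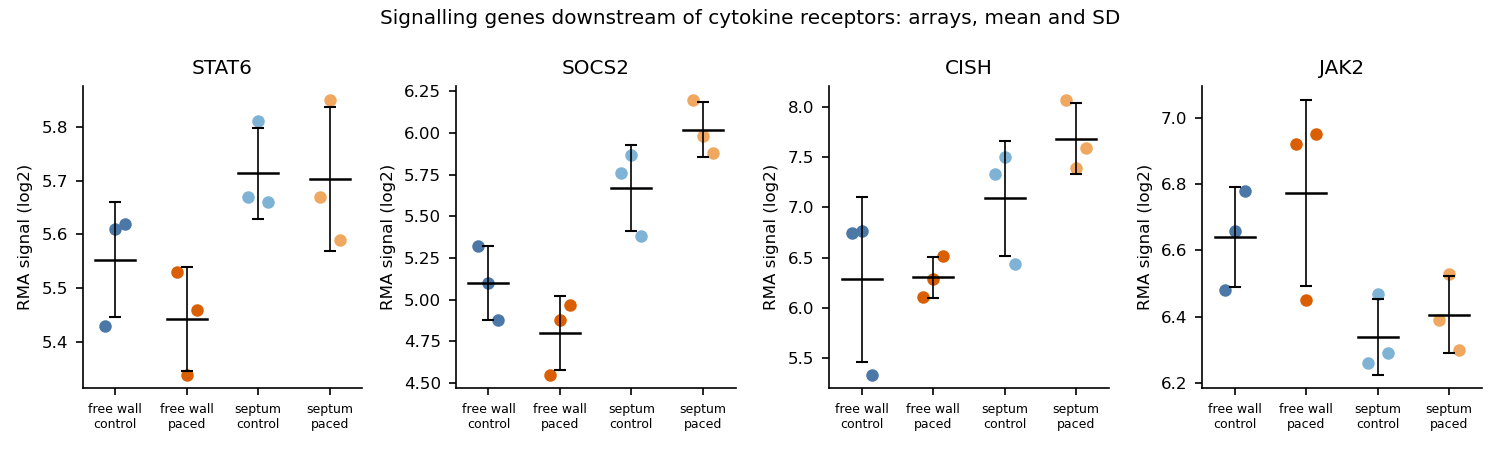
RMA signal (log2) of STAT6, SOCS2, CISH and JAK2 in each of the 12 arrays, by group; points are arrays, wide bars group means and capped bars the SD (n = 3). All 6 septum arrays of SOCS2 lie above all 6 free wall arrays, between 5.38 and 6.20 against 4.55 to 5.32.

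Of 29 matched related cytokine genes outside the CCL, CXCL and IL symbols, 12 were above background and 24 were tested, with 0 called in each comparison. ACKR3, a scavenging receptor for CXCL12 and CXCL11, read between 4.76 and 5.64. The interferon gamma receptor chain IFNGR1 stood at 0.37 for septum over free wall (SE 0.14, adjusted p = 0.566), and the macrophage growth factor CSF1 at -0.23 for pacing with regions averaged (SE 0.09, adjusted p = 0.889). CSF3, with a mean of 4.78, stood at 0.44 for pacing in free wall (SE 0.17, limma adjusted p = 0.998). Its difference of pacing effects was -0.75 (SE 0.25, adjusted p = 0.999). In control pigs it read higher in septum, at 0.48 (SE 0.17, adjusted p = 0.997). These genes were named after their values were seen.

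The CXCR3 ligands are known as interferon-induced genes, and they were set beside 22 matched interferon-stimulated genes. The mean of that list was lowest in free wall paced array 2 (4.72), septum paced array 2 (4.73), septum control array 1 (4.80) and free wall control array 1 (4.80), so that low arrays occurred in every group. CXCL10 read 3.55, 3.86, 3.92 and 3.88 on these 4 arrays, its 4 lowest values of 12. On the other 8 arrays the list lay between 4.86 and 5.54 and CXCL10 between 4.23 and 5.01. For CXCL9, 3 of its 4 lowest arrays were among them, and septum paced array 2 read 3.98. For CXCL11, 2 of its 4 lowest were among them, while free wall control array 1 held its highest value, 3.71. CXCL10 itself differed by -0.33 with pacing in free wall (SE 0.35) and -0.11 in septum (SE 0.35), with overlapping groups. In the free wall 20 of the 21 interferon-stimulated genes tested were below 0 with pacing (median -0.26), and 0 passed. Over all probe sets 49.9% were above 0 there. In the septum 14 of the 21 were below 0 (median -0.05). Arrays numbered alike may share an animal, and the part of the interferon-stimulated genes in the chemokine values was not tested.

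**Figure D5:**
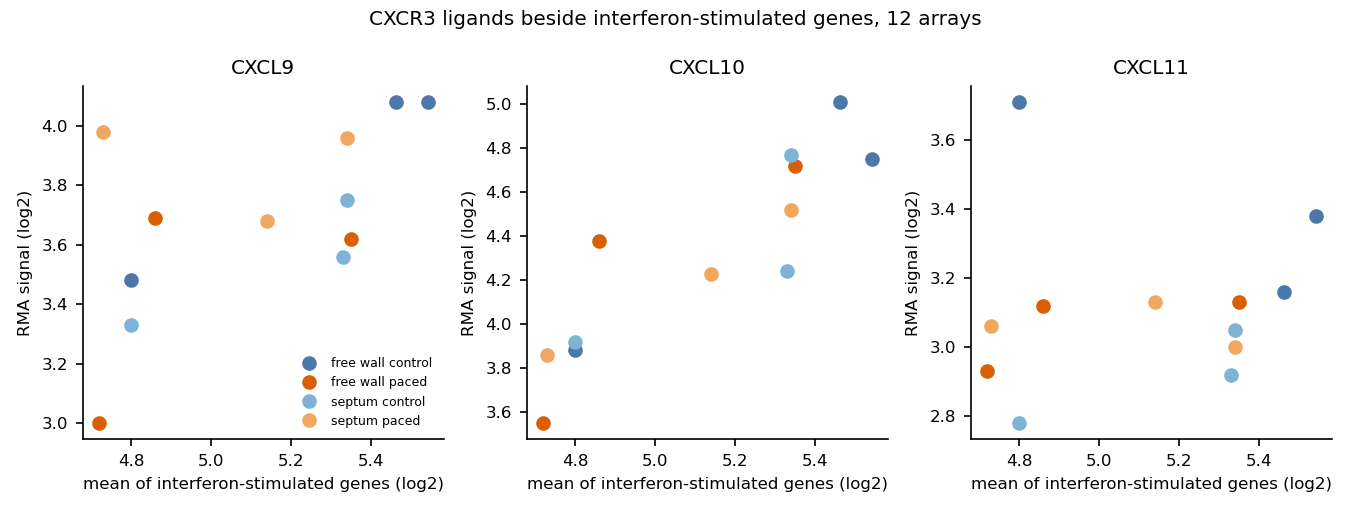
RMA signal (log2) of CXCL9, CXCL10 and CXCL11 on the vertical axes against the mean of 22 interferon-stimulated genes (log2) on the horizontal axes, 1 point per array, coloured by group. CXCL10 lies between 3.55 and 3.92 on the 4 arrays with the lowest list mean and between 4.23 and 5.01 on the other 8, while CXCL11 peaks at 3.71 on free wall control array 1, an array with a low list mean.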

How the data were processed

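The authors deposited 1 table of log2 values for 27558 probe sets and 12 arrays. The submitters' processing notes name RMA and Affymetrix Expression Console 1.4. RMA corrects background, normalises quantiles and summarises probes, so levels are relative. The genome build was not given in the sources used. A platform table gave 1 symbol for 13323 probe sets, several for 357 and none for 13878. Probe sets with several symbols stayed unnamed. Symbols were matched to RefSeq (Sscrofa11.1) for all 93 genes, only for gene order.

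Probe sets in the lowest 25% by mean were left out, and 20668 were tested with limma 3.58.1 in R 4.3.3: 1 mean per group over all arrays, variances moderated across probe sets (degrees of freedom 8 residual, 3.68 prior), two-sided, with Benjamini-Hochberg adjustment over all tested. A gene passed at an adjusted p under 0.05. For the comparison with regions averaged, free wall and septum arrays sharing treatment and number were merged by their mean (degrees of freedom 4 residual, 3.82 prior). SE is that of the log2 difference. The number of arrays limits precision. The code was tested on simulated data. Figures used matplotlib 3.10.9.

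As a check of pairing, deviations from group means were correlated between regions for each array number. They were 0.32, 0.25 and 0.24 among control and 0.09, -0.17 and -0.18 among paced arrays. A fit blocked by number was run as an alternative, and for pacing its blocks joined control and paced arrays of the same number. In each comparison CXCL11 and IL4R were named, with up to 6 genes per direction at an unadjusted p under 0.05 and up to 3 signalling genes. The genes, lists and rules were chosen with earlier results of these data known.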

Additional observations from a re-analysis of the deposited data

How the results depend on the processing

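None of the 61 genes passed in any of the 7 comparisons under any alternative run (0 throughout, limma), so no call could be lost. The 12 fits without a single array, the fit without both control arrays numbered 1 (chosen after seeing the data), other filters, array weights, an intensity trend, median centring, averaged probe sets and the replicate block were tried. The replicate block left IL4R at 0.59 over both treatments (adjusted p = 0.387) and 0.38 in control pigs (0.988), and changed no call of a named gene. For regions and the difference of effects the block joined arrays of a treatment that share a number. For pacing it joined control and paced arrays that share a number, which come from different pigs. It does not stand for shared animals there. Probe sets called over the whole table moved with the block from 1 to 0 for pacing in free wall and 2 to 0 in septum. For regions they moved from 0 to 1 in paced pigs and 2 to 1 over both treatments. Fits of only the groups compared gave 0 for free wall and 1 for septum. Array weights gave 2 for free wall, 2 with regions averaged and 4 for regions over both treatments, and the intensity trend also 4 there. With the lowest 50% left out 1 was called there, and without both control arrays numbered 1 the counts were 0 there, 0 in free wall and 4 in septum.

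The share of all probe sets at an unadjusted p under 0.05 moved between fits. Counts of genes printed without that share are not read as changes in the set. Genes at an unadjusted p under 0.05 numbered 5 in septum and 5 for the difference of effects with no filter, where all 93 genes were tested. With the lowest 50% left out, where 26 were tested, they numbered 2 in free wall, 0 in septum, 1 for the difference and 1 for regions in control pigs, and the median of the set was -0.07 in free wall and 0.16 for the difference. With array weights they numbered 9 for regions in control pigs (14.8%, against 8.15% of all) and 8 over both treatments (13.1%, against 13.8%). Without both control arrays numbered 1 they numbered 2 in free wall, 1 with regions averaged and 1 for regions in control pigs. IL4R with regions averaged was 0.03 with array weights, against -0.04. SOCS2 over both treatments was 0.98 with array weights and 0.90 with the trend, both passing, and it did not pass with the replicate block. The cause of these moves was not tested, apart from the number of genes tested under other filters.

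Leaving out single arrays, unadjusted counts ranged from 3 to 6 in free wall, 2 to 4 in septum and 0 to 6 for the difference. The 4 in septum came without septum paced array 2. Counts ranged from 1 to 5 for regions in control pigs, 3 to 8 in paced pigs, 1 to 4 with regions averaged and 4 to 7 over both treatments. For regions in paced pigs, 10.3% of all probe sets met the rule without free wall paced array 2, against 6.73% with all arrays. For the difference, 2.66% did without septum control array 1, against 2.75%. For pacing, 7.01% did in free wall without free wall paced array 2, against 4.56%, and 6.85% in septum, against 4.65%. Counts left without such a share are not read as changes in the set. Probe sets called ranged from 0 to 1, 1 to 4, 0 to 0, 0 to 0, 0 to 7 (7 without septum paced array 2), 0 to 3 and 0 to 3 in the same order. The free wall median ranged from -0.09 to 0.03. CXCL11 in paced regions ranged from -0.06 to 0.04, and with regions averaged from -0.26 to 0.05, where IL4R ranged from -0.24 to 0.17. Genes above background numbered 32 at the 90th percentile of the restricted genes, 4 at the 99th and 61 at the filter limit, in place of 19, so that this count depends on the level chosen. A difference in a gene under that level is measured on a signal that genes not used by heart muscle also give.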
